A study of Mus musculus with 4 samples.

Results

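The troponin genes encode the calcium switch of striated muscle, and 8 of them were read in the tissues that form the mouse tongue and lower jaw. The members were every non-control probe whose gene name on the array was Tnnc1, Tnnc2, Tnni1, Tnni2, Tnni3, Tnnt1, Tnnt2 or Tnnt3. They made up 8 of the 26759 genes named on the arrays and 15 of 56605 probes. The main pattern was a difference between paralogues. Slow troponin T (Tnnt1) stood at 29.4% of its tongue level in the lateral lingual swellings and at 42.9% in the lateral mandibular arch. The other members apart from the cardiac troponin I gene Tnni3 stood below 7% of their tongue level in every earlier tissue. Tnni3 was the exception, with low signals that were higher in both E11.5 tissues than in the tongue. The lingual swellings stood above the lateral arch in its brighter probe and level with it in the other.

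Troponin sits on the thin filament together with actin and tropomyosin. Troponin C binds calcium, troponin I holds the filament off until calcium arrives, and troponin T anchors the complex to tropomyosin. Fast skeletal, slow skeletal and cardiac fibres use different paralogues. Tnnc2, Tnni2 and Tnnt3 encode the fast forms, Tnni1 and Tnnt1 the slow forms, and Tnni3 and Tnnt2 the cardiac forms, while Tnnc1 serves both slow fibres and the heart. Immature skeletal muscle is known to carry cardiac and slow troponins before the adult fibre types are set, so a gene's fibre name describes its main adult site.

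Total RNA came from tissue pools of ICR mice, an outbred stock, with no genetic change or drug treatment named in the labels, and each pool was labelled with Cy3 and read on 1 single-colour Agilent array. MMA is the medial mandibular arch of 12 E9.5 embryos. LLS and LMA are the lateral lingual swellings and the lateral mandibular arch, each pooled from 4 E11.5 embryos, and T is the tongue of 4 E14.5 embryos. The swellings are the outgrowths on the arch floor that build most of the anterior tongue. Only LLS and LMA share a stage, so in every other comparison stage and structure cannot be told apart.

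There were no replicates, so no difference below has a replicate check, an SD or a p-value, and the number of arrays limits the precision. Signal is the processed brightness of a probe, corrected for background. A difference is the first tissue minus the second in log2 signal after each array was set against its own 75th percentile, and a difference of 1 is 2-fold. The error given with a difference is the one that the scanner software assigns to the spots. It was 0.204 to 0.365 for troponin probes measured in both tissues and covers reading error only. A signal not well above background was set to the dimmest clear signal of its array, so that the difference is a lower bound. Each gene is represented by its brightest probe, and levels are never set against those of another gene, because probes differ in how well they bind. Between 57.0% and 62.9% of non-control spots were well above background on an array, and none was saturated. Across other scalings of the arrays the median difference of all genes moved by between -0.27 and 0.28.

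The labels' extraction text mentions cerebellum. Of 9 cerebellar markers, Gabra6, Calb1, Neurod1 and Atoh1 were not well above background on any array, and Pcp2, Cbln1, Zic1, Pvalb and Pcp4 were so on all 4. Among the latter, Cbln1 was highest in MMA at 794 and Pcp2 in LMA at 1560. Whether RNA of that tissue is present was not tested. Skeletal muscle markers followed the tissue labels. Of 8 such genes, MMA had 1 well above background, LLS and LMA had 6 each, and T had all 8. All 9 arch mesenchyme markers were well above background on the earlier arrays, and on the T array 7 were, all but Dlx5 and Dlx6. All 8 oral and lingual epithelium markers were well above background on every array.

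What a troponin signal means depends on whether its probe can tell the paralogues apart. Probes were compared only with the probes of other troponin genes, which can lie in other parts of the message. Whether a probe matches the message of another troponin gene was therefore not tested. The probes closest to those of another gene are printed here. Each probe is 60 bases long, positions are mm9 per the file headers, and sequences run 5′ to 3′ along the transcript. Over the 96 pairs of probes of different troponin genes, the longest run of identical bases was 11. The highest identity without gaps, over at least 30 aligned bases, was 67.4%, between a Tnnt3 probe on the plus strand at chr7:149698467-149698526 and the Tnnt2 probe on the plus strand at chr1:137747976-137748288, which spans an intron. In this pair the capitals mark the 29 identical bases of 43 aligned ones.
Tnnt3: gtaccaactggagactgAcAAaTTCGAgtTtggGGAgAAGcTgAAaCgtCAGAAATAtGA
Tnnt2: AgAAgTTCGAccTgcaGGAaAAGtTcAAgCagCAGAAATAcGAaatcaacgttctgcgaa
The shared stretch is broken by many mismatches. The profiles of these probes parted from MMA to LLS. There the Tnnt3 probe changed from a signal of 169 to 145 and the Tnnt2 probe from 38.5 to 149. In the other comparisons their differences had the same sign, as in T minus LLS at 7.17 for Tnnt3 and 6.32 for Tnnt2.

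Slow troponin T departs from the other skeletal forms, and its second probe, on the minus strand at chr7:4460086-4460145, is printed because it gave the same pattern as the first. The probe of Tnnc1 (plus strand, chr14:32023360-32023776) and the second probe of Tnni1 (plus strand, chr1:137705328-137706203) are shown because both span introns, so that they match the spliced message. These are in lower case because no part was singled out.
Tnnt1: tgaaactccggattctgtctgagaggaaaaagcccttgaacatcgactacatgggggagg
Tnnc1: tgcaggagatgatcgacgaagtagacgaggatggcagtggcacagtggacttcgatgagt
Tnni1: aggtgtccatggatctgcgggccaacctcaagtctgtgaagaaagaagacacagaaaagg
The Tnni3 result, which opposes the others, rests on a pair of probes on the minus strand at chr7:4472043-4472102 and chr7:4471129-4472051. They share only the 9 bases in capitals, and the second one spans an intron.
Tnni3 first: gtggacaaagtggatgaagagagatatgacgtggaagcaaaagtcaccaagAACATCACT
Tnni3 second: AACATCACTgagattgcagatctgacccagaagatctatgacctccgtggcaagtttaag
Of the 60 readings of the 15 probes, 52 were well above background, and 11 probes were so on all 4 arrays.

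Troponin C is the calcium sensor. The fast gene Tnnc2 (minus strand, chr2:164602661-164602720) had signals of 12.8 (MMA), 595 (LLS), 2307 (LMA) and 104953 (T). The MMA value was not well above background. Tnnc2 was therefore at least 4067-fold higher in T than in MMA under the main processing. On the log2 scale this bound was 11.99, and other ways of processing gave 10.1 to 12.8. In these bulk samples, here and below, fewer muscle cells and less RNA per muscle cell cannot be told apart. Tnnc2 was also 164-fold higher in T than in LLS (7.36 ± 0.20 on the log2 scale) and 3.49-fold lower in LLS than in LMA. The slow and cardiac gene Tnnc1 gave 16.9 (MMA, not well above background), 86.6 (LLS), 399 (LMA) and 5706 (T). It was 61.2-fold higher in T than in LLS and 4.15-fold lower in LLS than in LMA. Both troponin C genes thus had the same order, T above LMA above LLS above MMA, and each step was larger than 2 errors.

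Troponin I is the inhibitory subunit. The fast gene Tnni2 (plus strand, chr7:149630241-149630300) had signals of 138 (MMA), 984 (LLS), 1481 (LMA) and 63592 (T). All of them were clear of background. The difference between LLS and MMA was 2.72 ± 0.21, that between T and LLS 5.91 ± 0.20, and that between LLS and LMA -0.44 ± 0.20, which is under 2-fold. The slow gene Tnni1 gave 396 (MMA), 567 (LLS), 1974 (LMA) and 31308 (T). The difference between LLS and MMA was 0.41 ± 0.21, and these tissues did not differ beyond 2 errors. Its second probe gave 146, 208, 766 and 13145 in the same tissue order. Tnni1 was 3.13-fold lower in LLS than in LMA and 51.3-fold higher in T than in LLS.

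Cardiac troponin I behaved unlike both skeletal forms. Tnni3 had signals of 31.7 (MMA), 98.9 (LLS), 72.4 (LMA) and 46.7 (T) with the intron-spanning probe. Its other probe gave 29.7, 69.6, 76.4 and 39.8. All these signals were low, and the highest and lowest lay close compared with the other members. Tnni3 was 2.89-fold higher in LLS than in MMA and 2.28-fold lower in T than in LLS (-1.19 ± 0.28). The other probe gave -0.91 for T minus LLS and 0.02 for LLS minus LMA, against 0.60 from the brighter probe. After scaling, LLS was thus above LMA in the brighter probe and level with it in the other. T and MMA did not differ beyond 2 errors (0.34 ± 0.34).

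Troponin T binds tropomyosin, and its fast and slow genes differed from each other more than those of troponin I or C did between LLS and T. The slow gene Tnnt1 gave 582 (MMA), 15228 (LLS), 24729 (LMA) and 55753 (T). The printed Tnnt1 probe gave 263, 6721, 11749 and 29036. On the log2 scale the step from MMA to LLS was larger than that from LLS to T, while in linear signal LLS stood at 29.4% of T. Tnnt1 was 24.2-fold higher in LLS than in MMA (4.60 ± 0.20), rank 36 of 16936 genes, and 3.40-fold higher in T than in LLS (1.77 ± 0.20), rank 1134 of 17508. These ranks place genes with a lower bound at that bound. The fast gene Tnnt3 showed the reverse arrangement of these steps. Its signals were 284 (MMA), 253 (LLS), 620.2 (LMA) and 41100 (T). MMA and LLS did not differ beyond 2 errors (-0.28 ± 0.21), and its 3 probes gave -0.33 to -0.25. Tnnt3 was 151-fold higher in T than in LLS (7.24 ± 0.20), rank 15 of 17508.

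Cardiac troponin T followed the tissue order of the skeletal forms and not that of Tnni3. The main Tnnt2 probe, printed above, gave 38.5 (MMA), 149 (LLS), 492 (LMA) and 12756 (T). Tnnt2 was 79.6-fold higher in T than in LLS (6.32 ± 0.21) and 3.58-fold higher in LLS than in MMA. The mean over all its probes, of which the others were dim, gave 3.48 for T minus LLS, 2.83 for T minus LMA, 3.98 for T minus MMA and 1.15 for LMA minus MMA. A second probe, assigned to another Ensembl transcript, was well above background only in LMA, at 36.4, and in T, at 343. The last one was not well above background on any array.

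**Figure D1:**
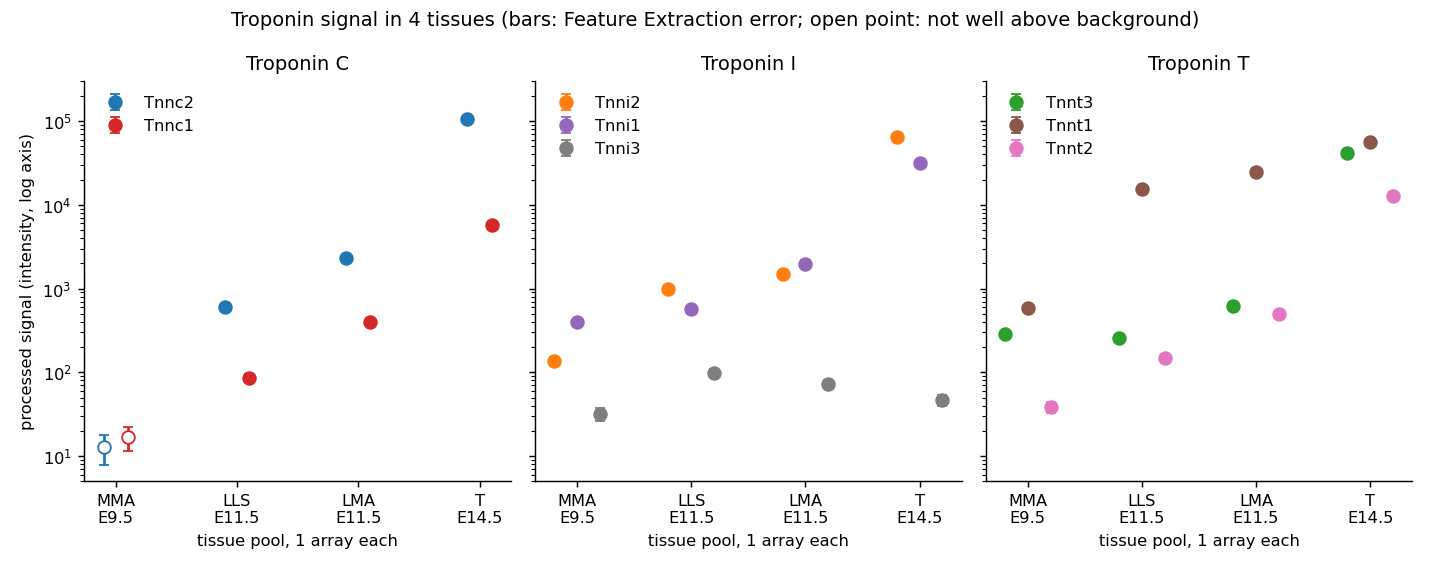
Processed signal (log axis) of the brightest probe of each troponin gene on the 4 arrays, grouped by subunit, with bars for the scanner software's error and open points for signals not well above background. Tnnt1 is at 15228 in LLS, where Tnnt3 is at 253, and Tnni3 lies between 31.7 and 98.9. Heights of different genes are not comparable.

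Counted by size, 7 of the 8 genes had at least 2-fold more signal in T than in LLS, while 12.6% of all 17508 genes compared were. Tnni3 was the 1 member at least 2-fold lower, beside 6.02% of all genes, and with normexp background correction it was not (-0.64). That correction also added an offset of 50 to every signal, which shrinks differences between dim signals. The median over the 8 members was 5.92, and over all genes -0.08. The same 7 genes also passed 2-fold in T over LMA (13.8% of all genes, member median 4.39) and in T over MMA (18.0%, member median 7.37). No member was at least 2-fold lower there, against 7.26% and 13.8% of all genes. These comparisons share the T array, so they are not separate evidence.

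At E11.5 the lateral arch carried more troponin signal than the lingual swellings. Of the 8 genes, 5 were at least 2-fold lower in LLS than in LMA (Tnnc2, Tnnt3, Tnnc1, Tnni1 and Tnnt2), against 2.89% of all 17545 genes, and none was higher, against 3.56%. The member median was -1.36 and that of all genes 0.00. The values were -1.80 for Tnnc2, -1.14 for Tnnt3, -2.05 for Tnnc1, -1.65 for Tnni1 and -1.57 for Tnnt2. Tnni2 and Tnnt1 pointed the same way at -0.44 and -0.55, and Tnni3 the other way at 0.60 (0.02 with its other probe). With normexp background correction the Tnnt3 difference was -0.99, just under 2-fold, and the mean over all Tnnt2 probes was -0.65.

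Against the E9.5 arch, 6 of 8 genes were at least 2-fold higher in LLS, beside 9.64% of 16936 genes. These were Tnnc2, Tnni2, Tnnc1, Tnnt1, Tnnt2 and Tnni3, and none was lower, beside 5.58%. Under the main processing Tnnc2 was at least 24.8-fold higher, and Tnnc1 had a lower bound of 1.85 on the log2 scale. The Tnnc2 bound was 4.63 on that scale, against 2.90 with normexp. With normexp 3 of the 6 were under 2-fold, with Tnnc1 at 0.75, Tnnt2 at 0.93 and Tnni3 at 0.69. In LMA minus MMA 6 genes were again at least 2-fold higher, beside 10.5%, with Tnni1 in the place of Tnni3, and none was lower, beside 7.17%. Tnnt1 led in fold among those measured in both tissues, at 35.4-fold, followed by Tnnt2 at 10.7-fold. Both comparisons share the MMA array.

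**Figure D2:**
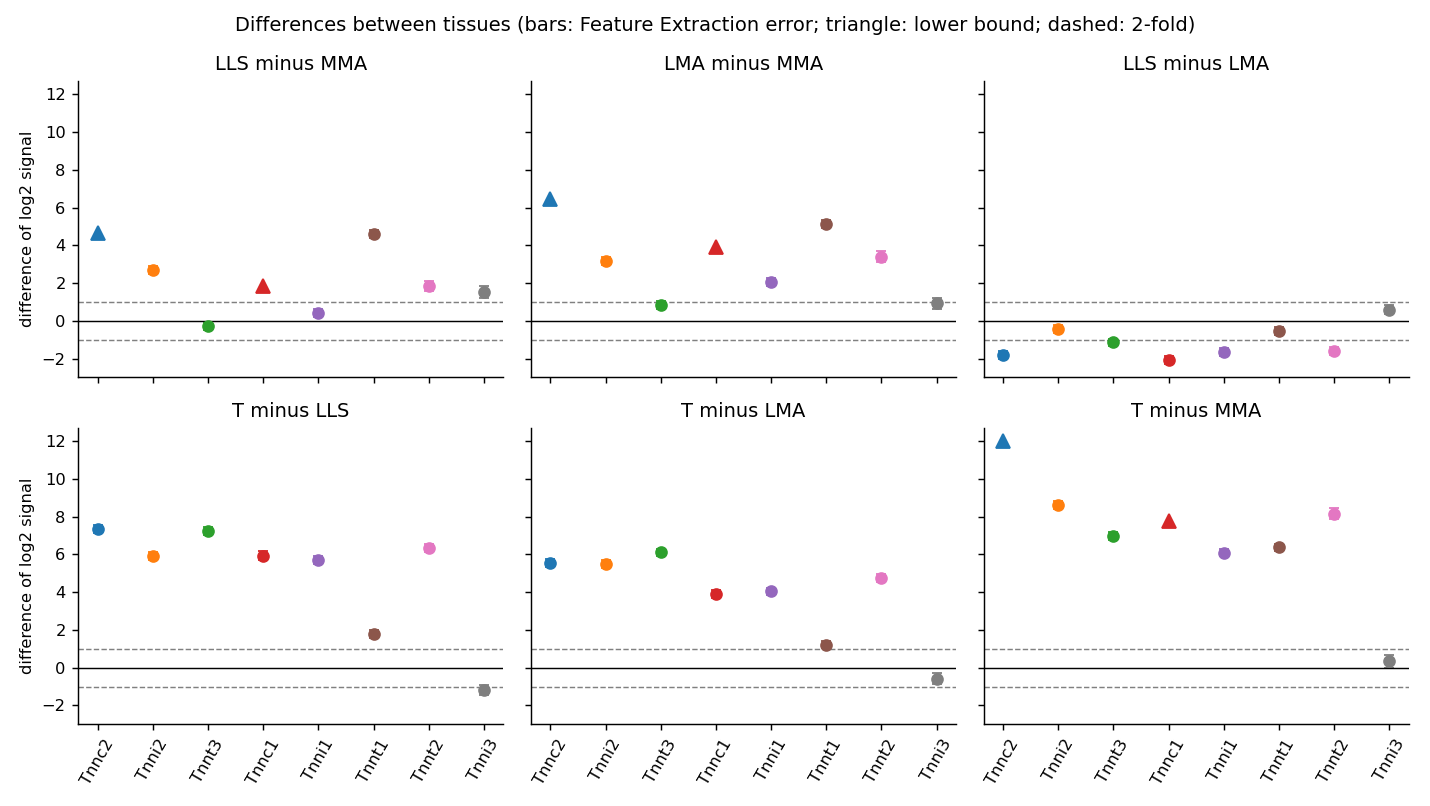
Differences in log2 signal for the 8 troponin genes in 6 comparisons, with the scanner software's error as bars, triangles for lower bounds and dashed lines at 2-fold. Tnnt1 is among the highest points in LLS minus MMA at 4.60 and, Tnni3 aside, the lowest in T minus LLS at 1.77.

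Set as a share of the tongue level, Tnnt1 stood apart from the other genes. In LLS the share was 29.4% for Tnnt1 (24.9% with the second probe), 1.95% for Tnni1, 1.67% for Tnni2, 1.63% for Tnnc1, 1.26% for Tnnt2, 0.664% for Tnnt3 and 0.610% for Tnnc2. In LMA it was 42.9% for Tnnt1 (39.2% with the second probe) and between 1.46% for Tnnt3 and 6.78% for Tnnc1 for the other genes except Tnni3. On the log2 scale LLS lay at 72.2% of the distance from MMA to T for Tnnt1. It lay at 6.68% for Tnni1, 31.5% for Tnni2 and -3.95% for Tnnt3. Tnni3 was at 228% of its tongue level in LLS and 150% in LMA, and at 188% and 186% with its other probe.

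**Figure D3:**
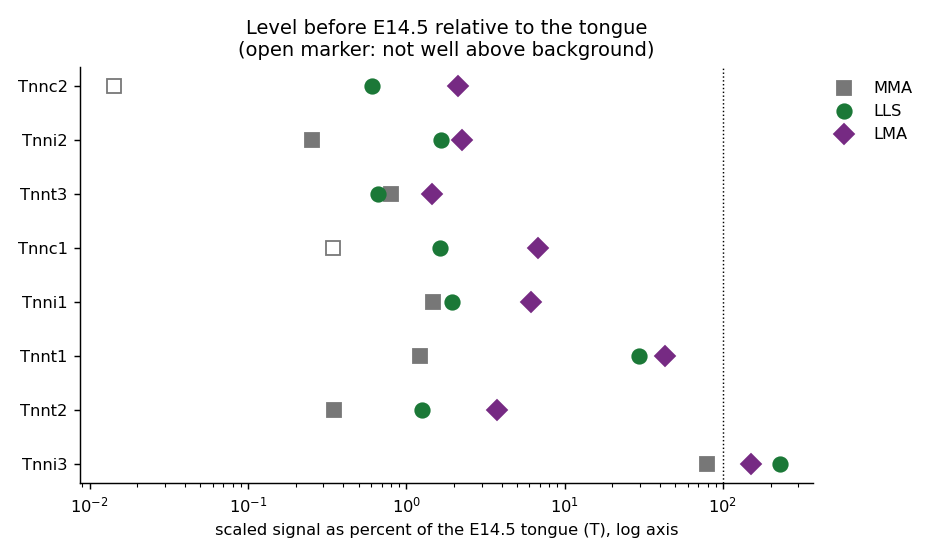
Scaled signal of each troponin gene in MMA, LLS and LMA as a percentage of its own level in T (log axis, dotted line at 100%), with open markers for signals not well above background. Tnnt1 lies at 29.4% and 42.9% in the E11.5 tissues, and Tnni3 lies above the dotted line there.

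The paralogues of 1 subunit were then set against each other within a comparison, as the fast gene's difference minus the slow gene's. For troponin T this was -4.87 ± 0.29 from MMA to LLS and 5.47 ± 0.29 from LLS to T, and the sum over the whole interval was 0.60 ± 0.29. The differences between T and MMA were 6.96 for Tnnt3 and 6.36 for Tnnt1. The larger part lay between LLS and T for Tnnt3 and between MMA and LLS for Tnnt1. For troponin I it was 2.31 ± 0.29 from MMA to LLS, opposite in sign to troponin T, and 0.23 ± 0.29 from LLS to T, within its error. For troponin C, where MMA gives only bounds, it was 1.42 ± 0.30 from LLS to T. Between LLS and LMA the fast-minus-slow value was 0.25 ± 0.30 for troponin C, 1.21 ± 0.29 for troponin I and -0.59 ± 0.29 for troponin T. Fibre class alone thus did not order the genes throughout. The T minus LLS differences spanned 5.91 to 7.36 for the fast genes and 1.77 to 5.94 for Tnnc1 and the slow genes. These ranges overlapped only by Tnni2 (5.91) and Tnnc1 (5.94), which lay within their errors. The cardiac pair was at -1.19 and 6.32. Only in T minus LMA did every fast gene (5.47 to 6.10) lie above Tnnc1 and the slow genes (1.22 to 4.03). The cardiac pair was at -0.58 and 4.74 there.

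Likeness of profiles was measured as the root mean square (RMS) distance over the 4 arrays between log2 profiles, each centred on its own mean, and is a description. Of the 28 pairs of troponin genes, Tnnc1 and Tnnt2 had the smallest distance at 0.31, followed by Tnni2 and Tnnt2 at 0.44 and Tnni2 and Tnnc1 at 0.67. None of these pairs shares a subunit. The MMA values of Tnnc1 and Tnnc2 are at the floor, so the distances and ranks of pairs with either gene are approximate. Among genes clear of background on every array, Tnni2 and Tnnt2 were closest, and Tnnt3 and Tnni3 were farthest apart at 3.22.

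Troponin I and T genes lie in linked pairs in the genome, each a troponin I gene beside a troponin T gene. Tnni1 and Tnnt2 on chromosome 1, with Lad1 between them and probes 40.4 kb apart, had a distance of 0.75, rank 5 of 28. Tnni2 and Tnnt3 on chromosome 7, with Lsp1 between them and probes 71.5 kb apart, had 1.11. Tnnt1 and Tnni3, direct neighbours on chromosome 7 with probes 14.8 kb apart, had 2.19. The pair that lies closest together was thus the least alike of these 3.

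**Figure D4:**
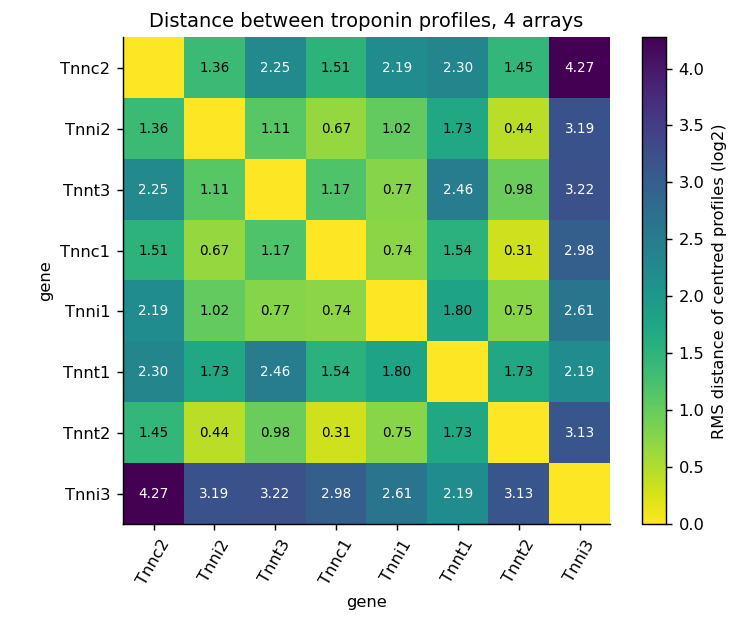
RMS distance in log2 between the centred profiles of each pair of troponin genes over the 4 arrays, with darker cells for larger distances. Tnni2 and Tnnt2 lie at 0.44 and Tnnt3 and Tnni3 at 3.22; cells of Tnnc1 and Tnnc2 use MMA values at the floor.

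The 3 genes nearest to each member over the 4 arrays are given with their distances. Tnnt1 was nearest to Cdh15, the M-cadherin of myoblasts, at 0.13, then the actin-severing Gsn at 0.41 and Lrrn1 at 0.47. Cdh15 had signals of 48.7, 1012, 1964 and 3920 in MMA, LLS, LMA and T. Tnnt2 was nearest to the Z-disc gene Actn2 (0.26), Apobec2 (0.27) and Mybph (0.43), and Tnni1 to the M-band gene Myom1 (0.19), Sh3bgr (0.36) and the calcium channel gene Cacna1s (0.43). Tnni2 was nearest to Apobec2 (0.37), Tnnt2 (0.44) and the perinatal myosin gene Myh8 (0.52), and Tnnt3 to Mustn1 (0.54), Eva1c (0.60) and the Z-disc gene Myot (0.62). These were drawn from 12771 genes well above background on all arrays. For Tnnc2 and Tnnc1, which were dim in MMA, the pool was 506 genes with the same pattern of detection. Their MMA values are at the floor, so these distances are approximate. Tnnc2 was nearest to the embryonic myosin gene Myh3 (0.45), Sln (0.62) and Casq2 (0.97), and Tnnc1 to Myom3 (0.19), Mybpc1 (0.46) and Myl3 (0.52). Tnni3 was nearest to Gsta4 (0.090), Tmsb15l (0.095) and Nrsn2 (0.10).

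Promoters were compared for Tnnc1 and Tnnt2, the pair with the smallest distance, and for Tnni1, the next member with a motif match. The windows run from 250 bases before to 50 after the start site and are from RefSeq (GRCm38.p6), which matched 6 of the 8 genes in 8 windows. Tnni2 and Tnnt3 were not matched. Capitals mark the E-box form CAGCTG, a site of myogenic bHLH factors, and the MCAT motif CATTCC, a site of TEAD factors, read on both strands. The windows are Tnnt2 at chr1:135836084-135836383, Tnnc1 at chr14:31208062-31208361 and Tnni1 at chr1:135799171-135799470, all on the plus strand.
Tnnt2: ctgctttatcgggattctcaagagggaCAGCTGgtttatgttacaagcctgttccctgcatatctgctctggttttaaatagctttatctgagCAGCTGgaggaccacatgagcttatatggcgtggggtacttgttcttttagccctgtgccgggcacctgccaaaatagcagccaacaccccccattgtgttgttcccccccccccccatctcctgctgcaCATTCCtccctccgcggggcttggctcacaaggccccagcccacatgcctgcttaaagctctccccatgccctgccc
Tnnc1: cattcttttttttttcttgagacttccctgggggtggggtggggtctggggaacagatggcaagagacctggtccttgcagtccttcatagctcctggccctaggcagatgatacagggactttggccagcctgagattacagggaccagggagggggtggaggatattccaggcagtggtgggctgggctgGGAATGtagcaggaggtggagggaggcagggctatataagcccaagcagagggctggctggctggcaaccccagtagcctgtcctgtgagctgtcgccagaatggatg
Tnni1: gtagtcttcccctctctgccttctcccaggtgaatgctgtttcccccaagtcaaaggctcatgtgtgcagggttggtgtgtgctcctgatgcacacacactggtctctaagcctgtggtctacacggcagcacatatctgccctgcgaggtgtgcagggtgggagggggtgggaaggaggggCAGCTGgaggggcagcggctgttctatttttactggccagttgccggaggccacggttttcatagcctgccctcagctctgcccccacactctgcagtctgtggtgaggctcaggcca
CATTCC lay at position -27 from the start in Tnnt2 and at -58 in Tnnc1, where it lies on the other strand. The other 6 windows did not hold these letters, and 14.7% of all 32851 promoter windows do. CAGCTG occurred at positions -223 and -157 from the start in the printed Tnnt2 window and at -68 in the printed Tnni1 window, beside 16.3% of all windows. The same Tnni1 site lay at -158 from that gene's other start. No other window held CAGCTG, the other Tnnt2 window included. The general E-box CANNTG, of which CAGCTG is a subset, was in all 8 windows and in 72.3% of all promoters. The SRF CArG box (1.63% of all promoters) and the MEF2 site (3.19%) were in none of the 8. These matches are descriptions of letters only.

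The list of thin filament partners gave smaller median differences than the troponins. It also holds cytoskeletal genes and the Z-disc gene Actn2, and its muscle genes were not set against the troponins separately. Of 17 partner genes, 10 passed 2-fold in T over LLS and none was as much lower, with a median of 1.53. Skeletal actin Acta1 (6.997) and Actn2 (6.12) were highest, and the cytoskeletal tropomyosins Tpm4 (-0.47) and Tpm3 (-0.33) lowest. In LLS minus LMA 5 of 16 were at least 2-fold lower and the median was -0.46. Actn2 (-1.90) and Acta1 (-1.81) were lowest, and Capza2 (0.15) and Nebl (0.08) highest. In LMA minus MMA 6 of 16 were at least 2-fold higher, with Actc1 (5.45) and Acta1 (4.71) at the top and Tpm3 (-0.61) and Tmod1 (-0.47) at the bottom.

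Fast and slow fibre genes other than troponins pointed the same ways. In T minus LLS 7 of 10 fast genes were at least 2-fold higher (median 3.41), led by Mylpf (7.54) and Myh3 (6.93), with Myh1 (0.25) and Actn3 (0.63), which is also on the thin filament list, lowest. Of the 9 slow and cardiac-shared genes 8 were higher (median 5.73), led by Csrp3, with a lower bound of 8.89, and Casq2 (7.78), with Atp2a2 (-0.36) and Myh7b (2.77) lowest. Slow genes thus had the higher median here. Among troponins the fast genes had it, at 7.24 in T minus LLS beside 5.68 for Tnnc1 and the slow genes. The slow gene Tnnt1 had the smallest troponin difference after Tnni3. In LLS minus LMA 5 of 10 fast genes were lower (median -1.09, Myh3 at -2.62 and Myh1 at -1.98), as were 5 of 9 slow genes (median -1.17, Casq2 at -2.06 and Myl3 at -1.70). In LMA minus MMA 7 of 10 fast genes were higher, with Myh3 at no less than 7.25 and Myl1 at 6.18, and 4 of 9 slow genes, with Myl3 at no less than 4.57 and Casq2 at no less than 4.26.

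Of the transcription factors and fusion genes of muscle, 8 of 13 were at least 2-fold higher and 2 lower in T than in LLS. Myf6, with a lower bound of 5.44, and the fusion gene Mymk, named Tmem8c on the array, at 4.34 were highest, and the progenitor factors Pax3 (-3.28) and Six4 (-1.20) lowest. In LLS minus LMA 2 of 12 were lower, Myog at -1.49 and Mymk at -1.45. In LMA minus MMA 6 of 12 were higher, led by Myog, with a lower bound of 7.31, and Myod1, with 5.10, and Tead4 was lower at -1.46.

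**Figure D5:**
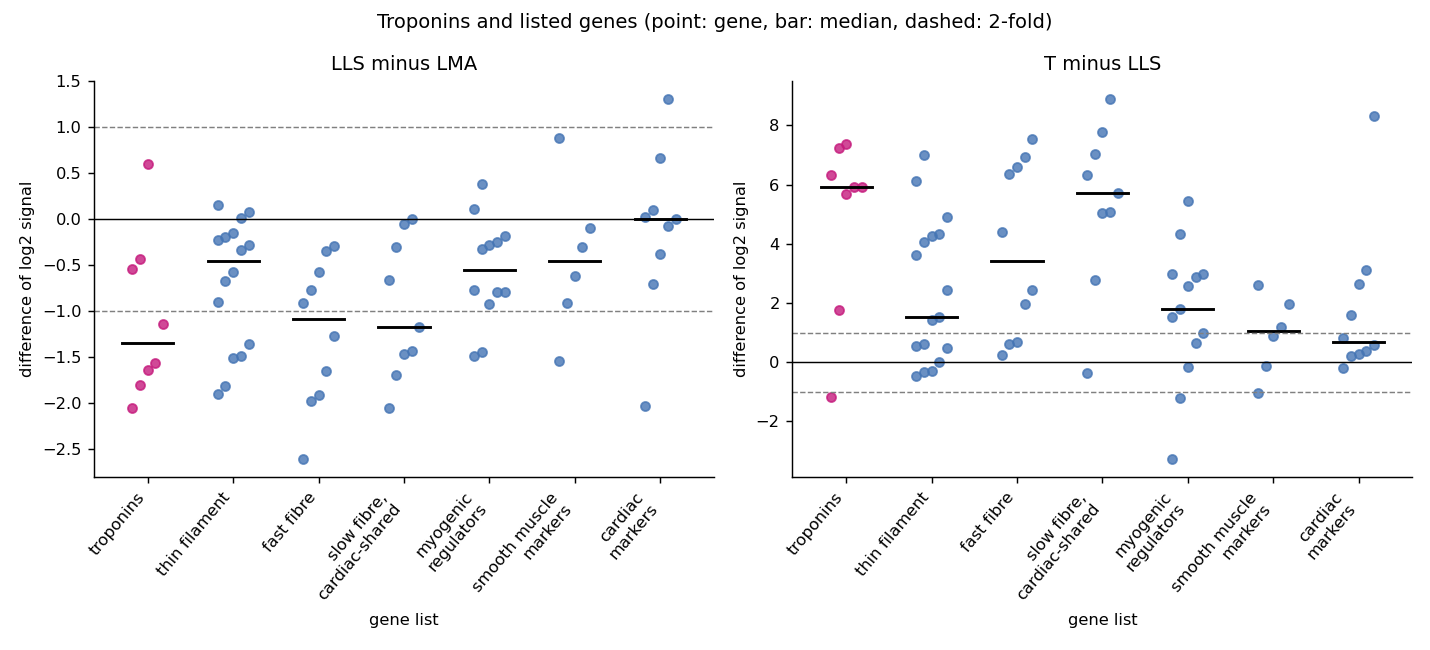
Differences in log2 signal for troponins and 6 gene lists in LLS minus LMA and T minus LLS, with 1 point per gene, bars for medians and dashed lines at 2-fold. The troponin median is 5.92 in T minus LLS beside 1.53 for the list of thin filament partners, and -1.36 in LLS minus LMA beside -0.46.

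Markers of the cell types that could carry these troponins moved as well, and their part in the results was not tested. Sums over a list add probes that bind differently, so they serve only to set 1 list against itself across tissues. The summed scaled signal of the 8 skeletal muscle markers was 0.221 (MMA), 6.88 (LLS), 15.9 (LMA) and 52.9 (T), the same order as for 6 of the troponins. Of these markers Myod1, Myog, Myf5, Pax7 and Mymk are also among the muscle regulators above. In LLS minus LMA 3 of 6 of these markers were at least 2-fold lower and the median was -1.19. Of 14 cardiac markers, MMA and LLS each had 7 well above background, LMA had 8 and T had 9. Pln and Gata4 were not so on any array, and Nppa and Nppb only in T, at signals of 30.01 and 144.9. The summed cardiac signal was 4.92, 6.07, 9.63 and 349.6 in that tissue order. Most of the T sum came from the single gene Myl4. In T minus LLS 4 of 10 cardiac markers were at least 2-fold higher, and the median was 0.69. Myl4, which embryonic skeletal muscle also uses, had signals of 174, 484.5, 2208 and 166700. Myl7, the atrial light chain, was highest in MMA at 512.8 and lower elsewhere, at 86.4 in LLS, 60.6 in LMA and 138 in T. For 7 smooth muscle markers, between 5 and 6 were well above background on each array, and the summed signal ranged from 27.7 in LLS to 63.0 in T. Arch mesenchyme markers were lower in T, with a summed signal of 104.7 (MMA), 28.8 (LLS), 84.3 (LMA) and 6.78 (T), and between LLS and LMA they pointed the same way as the troponins, with 6 of 9 at least 2-fold lower in LLS and a median of -1.42. Oral epithelium markers gave 21.7, 57.4, 21.1 and 559.3. The summed signal of 3 primitive erythroid globins was 1109, 904.6, 825.8 and 91.4.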

How the data were processed

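Each of the 4 arrays was 1 tissue pool. The authors scanned the arrays and Agilent Feature Extraction 10.7.1.1, per the file headers, turned the scans into intensity (the submitters' processing notes give 9.5.1.1). Those headers also record background subtraction, detrending and mm9 positions. A deposited table of processed intensity covers the same arrays. Its 4 columns share 1 maximum, with medians of 50.5 to 51.9, and ranked its 52141 matched probes as the scanner values did. The step that made it is not given in the sources used here.

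Flagged spots were left out, repeated spots averaged, log2 taken and the array's 75th percentile subtracted (Python 3.11.15, pandas 2.3.3; alternatives with limma 3.58.1 in R 4.3.3). Signals not well above background were raised to their array's dimmest clear signal. Genes were counted at 2-fold, with no test, since there was 1 array per tissue. The SD of a difference between single spots was 0.0589 to 0.0635, from probes printed at least 10 times. The counting was run on simulated data for T minus LLS. It called 0 of 100 genes set at 1.5-fold, 100 of 100 at 2.5-fold and 0 of 26559 unchanged genes. No gene was set close to the 2-fold limit, so this covers the counting step only and not the counts reported here. Named genes were all troponins, the 3 nearest profiles of each and the extremes of each list. The members and lists were chosen with earlier results of these data known.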

Additional observations from a re-analysis of the deposited data

How the results depend on the processing

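Of the 48 troponin differences, 39 were at least 2-fold. Their 345 values under 9 alternatives all kept their direction, and 338 stayed at least 2-fold. Part of this agreement was fixed in advance. Keeping only values clear of background in both tissues, or leaving out the floor, repeats the main value where both signals were clear. The mean over all probes repeats it for genes with 1 probe. With normexp, 27 of the 48 differences moved by at least their error. The normexp correction also added an offset of 50 to every signal, which shrinks differences between dim signals. With it, 3 in place of 6 genes were higher in LLS than in MMA. In T minus LLS, 0 in place of 1 were lower. At a limit of 4-fold these counts were also 3 and 0, and 1 in place of 5 genes was lower in LLS than in LMA. At 1.5-fold, 1 in place of 0 was higher there. The normexp values were -0.64 for Tnni3 in T minus LLS and -0.99 for Tnnt3 in LLS minus LMA. The mean over all probes put Tnnt2 at 0.50 in LLS minus MMA. Differences under 2-fold passed it elsewhere, Tnnt3 in LMA minus MMA (1.13 without scaling) and Tnni3 in LMA minus MMA (1.19 without scaling). The share of higher genes among all genes at least 2-fold apart moved with the scaling. In LMA minus MMA it was 59.4% here, 78.2% without scaling and 42.5% with median scaling. In T minus MMA it was 56.6%, 70.5% and 39.8%, in T minus LLS 67.6% here, 52.8% with median scaling, and in LLS minus LMA 55.2% and 40.3% without scaling. Cyclic loess gave 73.1% in T minus MMA and 75.7% against 65.6% in T minus LMA. No paired analysis was possible because each tissue had 1 array, and for the same reason no array could be left out. Signal near background limits Tnni3 and the MMA values of Tnnc1 and Tnnc2.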
